A study of Mus musculus with 6 samples.

Results

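The senescence gene Cdkn1a and other p53 target genes were followed liver by liver. The 10 genes were Cdkn1a, Btg2, Gadd45a, Mdm2, Ccng1, Trp53inp1, Bax, Bbc3, Eda2r and Phlda3, taken by symbol from a table of 55491 genes, and all 10 passed the filter that left 13943 genes for the test. RNA was sequenced from the livers of 3 Chrna2fl/fl mice (control livers a, b and c) and 3 Chrna2fl/fl;AlbCre mice (mutant livers a, b and c). All 6 mice carried the floxed allele of Chrna2, a subunit of the nicotinic acetylcholine receptor, and in mutants Cre under the albumin promoter deletes it in hepatocytes while other liver cells keep it. Mice entered the study at 7 to 10 weeks of age. All were kept for 4 weeks on a high-fat diet (HFD) in which fat supplied 60% of calories, and in weeks 3 and 4 they were given the liver toxin carbon tetrachloride (CCl4) 2 times per week (0.5 μl/g). All 6 livers thus had both challenges, and the comparison asks how these genes differed with hepatocyte Chrna2 in challenged livers.

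The transcription factor p53 is held at a low level by the ubiquitin ligase MDM2 and accumulates when DNA is damaged or when cells are otherwise stressed. It then switches on genes that stop the cell cycle, genes that repair DNA, genes that start cell death and Mdm2 itself, which closes a feedback loop. In the liver, CDKN1A (p21) restrains hepatocytes from dividing after injury and is a common marker of senescent hepatocytes. Several of these genes also respond to signals other than p53.

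Levels are FPKM, fragments per kilobase of transcript scaled to the mapped fragments of the library, and are given in the order of livers a, b and c. Chrna2 measured 1.24, 1.2 and 2.64 FPKM in controls against 0.36, 0.03 and 0.32 FPKM in mutants. Cre transcript was listed at 0 in each control and measured 3.31, 2.76 and 4.34 FPKM in mutants, so both genes went with the labels. The libraries held an estimated 17.3 to 18.1 M fragments in controls and 9.16 to 9.39 M in mutants, inferred from the steps between FPKM values. Since these ranges do not overlap, depth and genotype cannot be told apart. Control liver c had the lowest value of all 6 livers for 37.4% of tested genes.

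None of the 10 genes passed the test of genotype across all genes. At an adjusted p under 0.05 (limma on log2(FPKM + 0.1), Benjamini-Hochberg), 0 of the 10 genes were called, where 0% of all genes were called higher and 0% lower. Again 0 of the 10 were called at an unadjusted p under 0.05, the threshold used in the study, where 13.2% of all genes were called higher in mutant livers and 3.02% lower. For 0 of the 10 did all mutant livers lie above all controls, an order seen in 18.7% of all genes, or below them, as in 4.34%. The test called 0 genes of the whole table after adjustment and 2263 at an unadjusted p under 0.05, and other forms of it called 7 genes (limma without the trend), 4 (array weights) and 5 (no moderation) after adjustment. The counts over all genes also turned on single livers, with 39 genes after adjustment and 3407 before it without control b, and 1418, 1328 and 1406 before it without control a, control c and mutant b. After adjustment these last 3 gave 0, 0 and 2 genes. Each gene is therefore given with the 95% interval of its difference.

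The genes that stop the cell cycle came first. Cdkn1a (ENSMUSG00000023067, chromosome 17 of GRCm38 from 29090976 to 29100727) encodes the inhibitor of cyclin-dependent kinases through which p53 arrests cells. It measured 6.50, 13.17 and 2.65 FPKM in controls and 9.64, 7.44 and 19.92 FPKM in mutants. Control liver c held the lowest and mutant liver c the highest value, while control liver b lay above mutant livers a and b. The mean was 7.44 ± 5.32 FPKM (SD, n = 3) in controls and 12.3 ± 6.66 FPKM (SD, n = 3) in mutants. The log2 fold change was 0.87 (standard error 0.59, 95% interval -0.52 to 2.26, adjusted p = 0.468, limma). The spread inside each genotype was as wide as that: the highest control was 4.97-fold above the lowest, and the highest mutant 2.68-fold. Over all 6 livers Cdkn1a spanned 7.52-fold, and its SD on the log2 scale exceeded that of 92.1% of tested genes. Genotype took up 23.7% of its variance, against a median of 27.3% over all tested genes.

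Btg2 (ENSMUSG00000020423, chromosome 1 from 134075170 to 134079120, minus strand), an antiproliferative gene whose protein promotes shortening of mRNA tails, was at 6.02, 7.52 and 5.53 FPKM in controls and 6.59, 9.08 and 12.40 FPKM in mutants. Mutant livers b and c were above every control and mutant liver a was inside the control range. Its log2 fold change of 0.52 (standard error 0.25, 95% interval -0.075 to 1.11) had the smallest p of the 10 genes, 0.0781, and an adjusted p of 0.344 (limma). Genotype took up 44.0% of its variance. Gadd45a (ENSMUSG00000036390, chromosome 6 from 67035096 to 67037457, minus strand), a stress sensor that binds cell cycle and signalling proteins, had another order of livers. It was at 18.26, 13.12 and 15.80 FPKM in controls and at 12.66, 11.91 and 36.01 FPKM in mutants. Mutant livers a and b were thus below every control while mutant liver c was 3.02-fold above mutant liver b, and the log2 fold change of 0.17 (95% interval -0.80 to 1.14, adjusted p = 0.836, limma) rests on that single liver. Without it the value was -0.34.

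**Figure D1:**
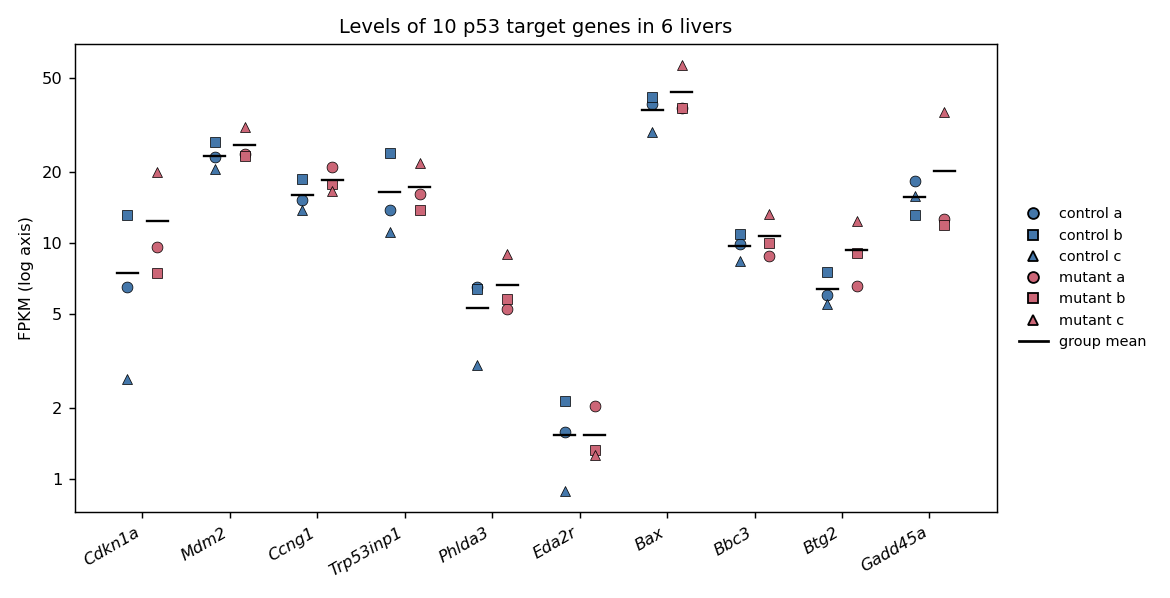
FPKM of the 10 genes in each liver, on a log axis; points are livers and bars are the means of 3 livers per genotype. The points of the genotypes overlap for every gene, and Cdkn1a has the widest spread, from 2.65 to 19.92 FPKM.

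Genes that act back on p53 came next, and none of them passed the test. Mdm2 (ENSMUSG00000020184, chromosome 10 from 117688875 to 117710758, minus strand), the ligase that marks p53 for degradation, was at 23.11, 26.73 and 20.50 FPKM in controls and 23.83, 23.46 and 30.90 FPKM in mutants. Its 6 values stayed within 1.51-fold, the narrowest span of the 10 genes. The log2 fold change was 0.15 (95% interval -0.25 to 0.54, adjusted p = 0.650, limma). Ccng1 (ENSMUSG00000020326, chromosome 11 from 40748552 to 40755311, minus strand) encodes cyclin G1, which brings a phosphatase to MDM2. It was at 15.22, 18.71 and 13.75 FPKM in controls and 21.02, 17.75 and 16.64 FPKM in mutants. It was the only one of the 10 genes whose highest value was in mutant liver a, and its log2 fold change was 0.22 (95% interval -0.17 to 0.62, adjusted p = 0.512, limma). Trp53inp1 (ENSMUSG00000028211, chromosome 4 from 11156431 to 11174379), whose stress-induced protein promotes p53 activity and autophagy, was at 13.85, 24.12 and 11.16 FPKM in controls and 16.16, 13.76 and 21.74 FPKM in mutants. Its highest value was in control liver b, and the log2 fold change was 0.12 (95% interval -0.59 to 0.84, adjusted p = 0.841, limma).

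The cell death genes were the most and the least abundant of the group. Bax (ENSMUSG00000003873, chromosome 7 from 45461697 to 45466898, minus strand), which permeabilises the outer mitochondrial membrane, was at 38.68, 41.59 and 29.51 FPKM in controls and 37.46, 37.33 and 56.58 FPKM in mutants. Mutant livers a and b sat between the controls, and the log2 fold change was 0.25 (95% interval -0.26 to 0.75, adjusted p = 0.560, limma). Bbc3 (ENSMUSG00000002083, chromosome 7 from 16308393 to 16318205) encodes PUMA, which frees BAX from its BCL2 family inhibitors. It was at 9.88, 10.95 and 8.41 FPKM in controls and 8.81, 9.98 and 13.28 FPKM in mutants, with a log2 fold change of 0.12 (95% interval -0.34 to 0.58, adjusted p = 0.762, limma). Mutant livers a and b again lay inside the control range. Eda2r (ENSMUSG00000034457, chromosome X from 97333840 to 97377216, minus strand), the TNF receptor family member that binds ectodysplasin A2, was the lowest, at 1.59, 2.15 and 0.89 FPKM in controls and 2.04, 1.33 and 1.26 FPKM in mutants. Both genotypes had a mean of 1.54 FPKM, and the log2 fold change was 0.048 (95% interval -0.84 to 0.93, adjusted p = 0.956, limma). Phlda3 (ENSMUSG00000041801, chromosome 1 from 135766119 to 135769136), whose protein competes with AKT for membrane lipids, was at 6.50, 6.37 and 3.05 FPKM in controls and 5.25, 5.77 and 8.97 FPKM in mutants. Control livers a and b were above mutant livers a and b, while control liver c was the lowest and mutant liver c the highest. The log2 fold change was 0.36 (95% interval -0.44 to 1.16, adjusted p = 0.593, limma).

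**Figure D2:**
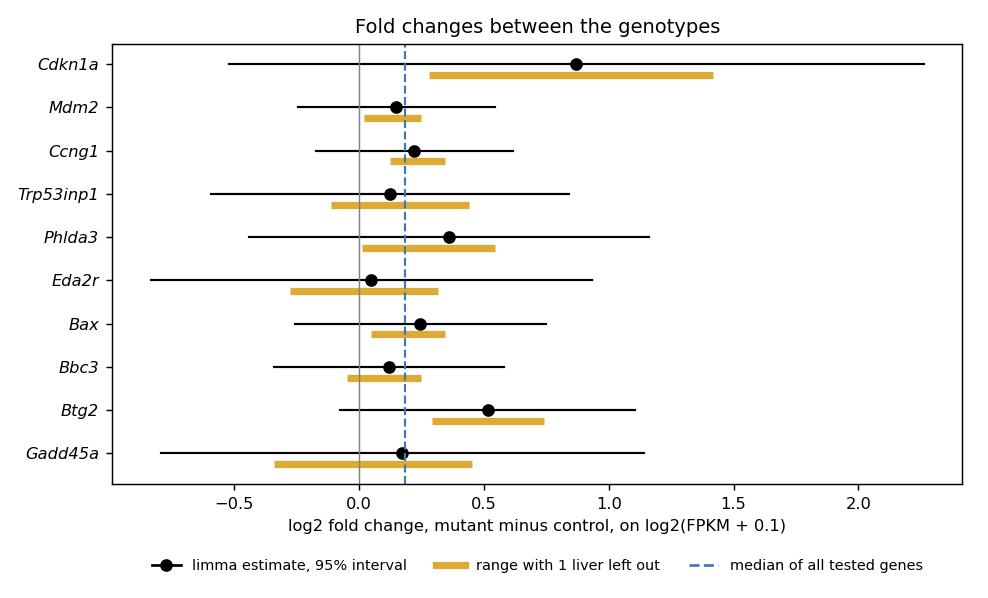
Log2 fold change of each gene, mutant minus control, on the log2(FPKM + 0.1) scale, with its 95% interval from limma; the vertical line marks the median of all tested genes, 0.19. Every interval includes 0, and the intervals of Cdkn1a, from -0.52 to 2.26, and Mdm2, from -0.25 to 0.54, differ widely in width.

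Exact permutation tests on single genes, two-sided over 3 livers against 3, used the difference in mean FPKM and not the log2 scale. They gave p-values from 0.2 (Btg2) to 1 (Eda2r and Gadd45a), where 0.1 is the smallest that this design allows. The log2 fold change was above 0 in 10 of the 10 genes, but 70.3% of all tested genes were also above 0. The median of the 10 was 0.20 and that of all tested genes 0.19, with 5 of the 10 above it, so the p53 targets as a group sat 0.012 above the middle of all genes. After median-ratio scaling of the libraries, which brought the median of all genes to -0.0062, Mdm2, Trp53inp1, Eda2r, Bbc3 and Gadd45a were below 0. After quantile normalization Trp53inp1, Eda2r and Bbc3 were.

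Genotype took up the smaller part of the variance of these genes. With so few livers, such a share tends to lie above 0 even where genotype has no effect. Mutant liver c held the highest value of 7 of the 10 genes, against 24.1% of all tested genes, and control liver c the lowest value of 9, against 37.4%. Both held for 6 genes (Cdkn1a, Mdm2, Phlda3, Bax, Bbc3 and Btg2) and for 11.4% of all genes. Centred on each gene's mean over the 6 livers, the median of the 10 genes was -0.43 in control liver c and 0.47 in mutant liver c on the log2 scale. In the other 4 livers it lay between -0.072 and 0.13. The same median over all genes ran from -0.17 to 0.12, a narrower span. The median SD of the 10 within a genotype was 0.41 against 0.28 for all genes, and genotype took up a median of 15.8% of their variance against 27.3%. Both livers c were also left out, a step taken after their values were seen. Their removal had to lower the difference of the 6 genes that were lowest in control c and highest in mutant c. Without both livers c the log2 fold change was below 0 for 8 of the 10 genes. Btg2 and Ccng1 stayed above 0.

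**Figure D3:**
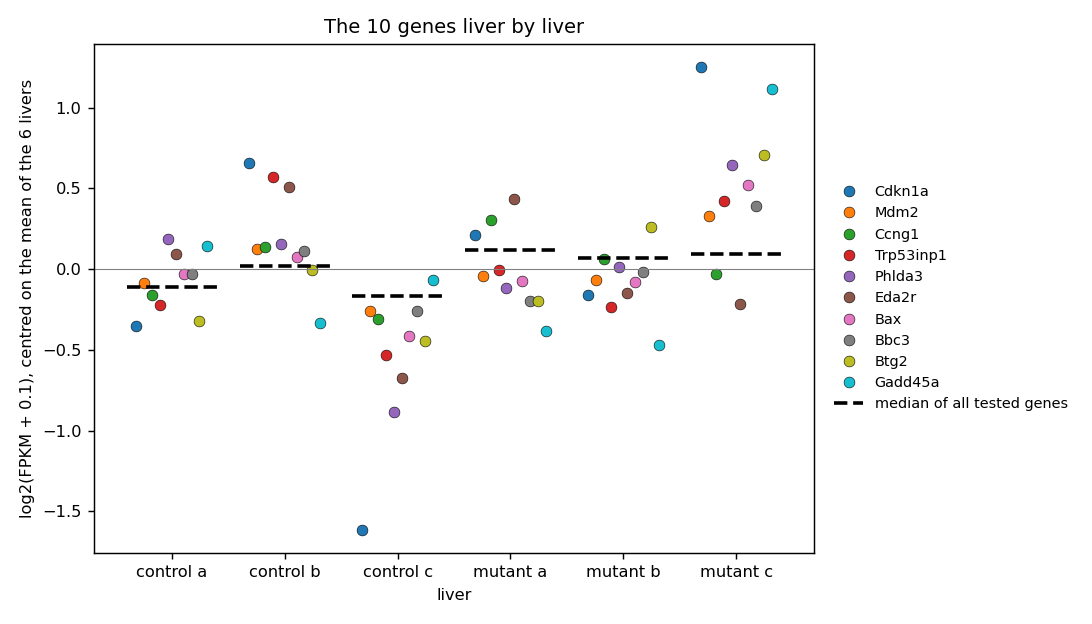
Log2(FPKM + 0.1) of each of the 10 genes in each liver, centred on the gene's mean over the 6 livers; dashed bars are the median of all tested genes. The genes lie low in control liver c (median -0.43) and high in mutant liver c (median 0.47), with Cdkn1a outermost in both.

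The size of the differences turned on single livers as well. Without control liver b, in which Cdkn1a was at 13.17 FPKM, its log2 fold change rose from 0.87 to 1.42 and passed the unadjusted threshold (unadjusted p = 0.0374, adjusted p = 0.180, limma). Without control liver c it was 0.28 (unadjusted p = 0.590) and without mutant liver c 0.46 (unadjusted p = 0.495). Btg2 passed the unadjusted threshold without mutant liver a, at 0.74 (unadjusted p = 0.0173, adjusted p = 0.376, limma), and was at 0.29 without mutant liver c (unadjusted p = 0.255). Phlda3 went from 0.36 to 0.0099 without control liver c and to 0.13 without mutant liver c. Bax went from 0.25 to 0.098 and 0.046 in the same order, and Mdm2 from 0.15 to 0.057 and 0.021. Ccng1 went from 0.22 to 0.12 without control liver c or mutant liver a and to 0.34 without control liver b.

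None of the 5 genes nearest to Cdkn1a in size and order of differences was on the lists of p53 regulators and targets used here. Those lists do not hold every p53 target, and whether p53 regulates these 5 genes was not tested. By root mean square distance between centred log2 values, the nearest of all tested genes were Fbxw17 (0.224), Platr25 (0.258), Ier3 (0.265), Epha2 (0.274) and Speg (0.278). All 5 had their lowest value in control liver c and their highest in mutant liver c, as Cdkn1a did, an order that the choice by distance favours. Ier3, an immediate early gene, was at 1.67, 2.39 and 0.52 FPKM in controls and 2.93, 2.31 and 5.09 FPKM in mutants. Epha2, an ephrin receptor, was at 5.54, 10.02 and 2.97 FPKM in controls and 7.09, 6.12 and 11.74 FPKM in mutants. Among the other 9 members, Phlda3 was nearest at 0.513, rank 306 of the 13943 genes, followed by Trp53inp1 at 0.567 and Btg2 at 0.639. Gadd45a was farthest at 0.825, rank 5805. The distance counts the size of the differences as well as their order. Mdm2, with a span of 1.51-fold, ranked 2729 although it too was lowest in control c and highest in mutant c. A far rank therefore does not mean another order of livers. These distances describe 6 livers only, and all of them carry the spread of livers c.

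Promoters are shown because p53 binds a recognised sequence, a decamer of 3 purines, C, A or T, A or T, G and 3 pyrimidines, which reads the same on both strands and usually occurs as a pair. RefSeq promoters (GRCm38.p6, 250 bases before to 50 after each start) were held for 9 of the 10 genes, 12 promoters in all. The p53 decamer occurred in 5 of the 12 promoters, each of a different gene, against 8.36% of 32851 promoters. The stretches around it are printed 5′ to 3′ on the strand of the gene, with the decamers in capitals, and all lie upstream of the start.
Cdkn1a, chr17:29090881-29090962 (plus strand): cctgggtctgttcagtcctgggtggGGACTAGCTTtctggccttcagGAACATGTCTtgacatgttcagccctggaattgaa
Ccng1, chr11:40755437-40755496 (minus strand): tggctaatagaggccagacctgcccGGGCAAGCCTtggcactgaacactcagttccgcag
Mdm2, chr10:117710910-117710969 (minus strand): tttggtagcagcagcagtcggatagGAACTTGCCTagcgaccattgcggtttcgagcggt
Bax, chr7:45467065-45467124 (minus strand): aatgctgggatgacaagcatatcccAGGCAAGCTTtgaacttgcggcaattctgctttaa
Gadd45a, chr6:67037413-67037472 (minus strand): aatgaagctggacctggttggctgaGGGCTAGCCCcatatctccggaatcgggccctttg

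In Cdkn1a the decamers begin 73 and 51 bases before the upstream of its 2 starts, which lie 2790 bases apart. A pair of decamers separated by at most 13 bases was found in this promoter alone among the 12, and in 0.0731% of all promoters. The decamer begins 185 bases before the start in Ccng1, 186 in Mdm2, 201 in Bax and 40 in Gadd45a. A search added after these sequences were seen asked for a full 20-base site, both decamers without a gap, with at most 1 mismatch. It found Cdkn1a (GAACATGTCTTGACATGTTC, 51 bases before the upstream start) and Ccng1 (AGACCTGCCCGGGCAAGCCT, 195 bases before the start), against 0.0883% of all promoters. In both, the site includes the decamer printed nearest the start. Over the 6 livers Cdkn1a spanned 7.52-fold and Ccng1 1.53-fold, and a link of these spans to the sites was not tested. No decamer in this window says only that these letters are not there, and a match is not a measured binding site.

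Upstream of these targets, Trp53 itself, the gene for p53, was at 8.96, 10.15 and 7.31 FPKM in controls and 11.29, 12.11 and 12.65 FPKM in mutants. Every mutant liver was above every control, with a log2 fold change of 0.46 (95% interval 0.072 to 0.84, unadjusted p = 0.0261, adjusted p = 0.283, limma), so it did not pass after adjustment. The p53 protein is controlled largely by its stability, which RNA does not measure. Of 15 tested genes of 17 p53 regulators, 3 passed an unadjusted p under 0.05 and all 3 were higher, 20% against 13.2% of all genes. Chek1, a DNA damage checkpoint kinase, was at 0.53, 1.02 and 0.52 FPKM in controls and 2.18, 2.05 and 1.73 FPKM in mutants (log2 fold change 1.45, unadjusted p = 0.0034, adjusted p = 0.255, limma). Rchy1, another ligase of p53, was at 16.11, 16.93 and 14.45 FPKM in controls and 19.91, 20.03 and 19.65 FPKM in mutants (log2 fold change 0.33, unadjusted p = 0.0339, adjusted p = 0.287, limma). Mdm4, the MDM2 relative that restrains p53, had values of 8.01, 10.20 and 10.70 FPKM in controls and 9.27, 8.70 and 10.20 FPKM in mutants (log2 fold change -0.029, adjusted p = 0.938, limma). The calls rested on several livers, and the count of 3 fell to 1 without control a, control c, mutant b or mutant c, and also after median-ratio scaling. Trp53 lost its call without each of those 4 livers, with unadjusted p-values from 0.0543 to 0.0748 and log2 fold changes from 0.33 to 0.47. The median of the list was 0.24 against 0.19 for all genes.

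The wider set of p53 targets gave few calls as well. Of 31 tested genes of 32, 4 passed the unadjusted threshold, 3 with higher and 1 with lower values in mutants (9.68% and 3.23%, against 13.2% and 3.02% of all genes), with 21 above 0, 10 below and a median log2 fold change of 0.12. Dcxr, a carbonyl reductase abundant in liver, was lower at 41.44, 42.63 and 24.79 FPKM in mutants against 88.12, 65.76 and 69.89 FPKM in controls (log2 fold change -1.07, unadjusted p = 0.00251, adjusted p = 0.245, limma). Pidd1, the scaffold of a caspase-2 complex, had 1.44, 2.23 and 2.22 FPKM in mutants against 0.90, 1.19 and 0.85 FPKM in controls (log2 fold change 0.92, unadjusted p = 0.0164, adjusted p = 0.266, limma). The other 2 were Plk2, a polo-like kinase (log2 fold change 0.70, unadjusted p = 0.0340), and Trp53inp2, an autophagy gene (0.39, unadjusted p = 0.0470). Without control liver c Plk2 was at 0.39, and without mutant liver c Trp53inp2 was at 0.24. The 3 higher calls fell to 0 without mutant b or mutant c and rose to 7 without control b, while the lower ones rose to 2 without control c and 3 without control b. Gdf15, a stress cytokine, was at 2.51, 3.30 and 3.76 FPKM in controls and 3.59, 4.06 and 7.11 FPKM in mutants (log2 fold change 0.56, adjusted p = 0.368, limma). Trp53cor1, the long noncoding RNA lincRNA-p21 encoded beside Cdkn1a, was below the filter, at 0.15, 0.42 and 0.16 FPKM in controls and 0.22, 0.31 and 0.22 FPKM in mutants. It was not tested.

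Relatives of the 10 genes were compared in the same way. Of 7 tested BTG and GADD45 relatives, 0 passed an unadjusted p under 0.05, where 13.2% of all genes were higher and 3.02% lower. The median was -0.0095. Btg1, which like Btg2 restrains proliferation, was at 11.52, 15.54 and 8.96 FPKM in controls and 11.41, 12.49 and 21.11 FPKM in mutants (adjusted p = 0.600, limma), again lowest in control c and highest in mutant c. Btg3 had a log2 fold change of 0.33. Gadd45b was at 4.98, 2.06 and 1.33 FPKM in controls and 2.7, 1.42 and 3.15 FPKM in mutants, and Gadd45g at 6.86, 54.82 and 20.24 FPKM in controls and 6.34, 26.25 and 13.83 FPKM in mutants. Neither followed the order of the livers seen for Gadd45a. Of 11 tested BCL2 family genes, 2 passed, both higher, 18.2% against 13.2% of all genes: Bak1, the partner of Bax, at 7.02, 8.77 and 6.53 FPKM in controls and 10.61, 10.37 and 9.17 FPKM in mutants (log2 fold change 0.44, unadjusted p = 0.0316, adjusted p = 0.285, limma), and Bcl2a1b, a protective member expressed mainly in blood cells (0.90, unadjusted p = 0.0255). The count of 2 fell to 0 without control a, control c or mutant b, to 1 without mutant a or mutant c, and rose to 4 without control b.

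Senescence is read from more than Cdkn1a. Among 9 tested genes of the list of other cyclin-dependent kinase inhibitors and senescence chromatin, 1 passed an unadjusted p under 0.05, higher, and 0 were lower. These were 11.1% and 0%, against 13.2% and 3.02% of all genes. The higher count was 2 without mutant b, and the lower count was 1 without control b or control c. The 1 call was Lmnb1, the nuclear lamina gene that falls in senescent cells, which was at 3.85, 4.29 and 3.34 FPKM in controls and 5.95, 6.21 and 5.34 FPKM in mutants (log2 fold change 0.60, unadjusted p = 0.00868, adjusted p = 0.255, limma). Cdkn2a, which encodes the senescence markers p16 and ARF, was below the filter and not tested, at 0.67, 0.20 and 0.19 FPKM in controls and 0.19, 0.38 and 0.37 FPKM in mutants. Of 18 tested senescence-associated secretory genes, 17 had a log2 fold change above 0, as did 70.3% of all genes, with a median of 0.82. Of these 18, 5 passed, all higher, 27.8% against 13.2% of all genes. For only 3 of the 18 was every mutant liver above every control, an order seen in 18.7% of all genes. Timp1, a protease inhibitor also made by activated stellate cells, was at 2.50, 6.49 and 0.87 FPKM in controls and 14.74, 13.35 and 8.36 FPKM in mutants (log2 fold change 2.22, unadjusted p = 0.00948, adjusted p = 0.255, limma). It was highest in mutant liver a, not in mutant liver c as for Cdkn1a. Il1a (0.83, unadjusted p = 0.00641) and Tgfb1 (0.82, unadjusted p = 0.0315) were the other named cytokines. The 5 calls fell to 3 without control a, control c or mutant b and rose to 8 without control b.

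Proliferation genes, which CDKN1A restrains, had their lowest median centred level in control liver c, at -1.35, as Cdkn1a did, and their highest in mutant liver b, at 0.66. Of 27 genes, all tested, 23 had a log2 fold change above 0 and 9 passed an unadjusted p under 0.05, all higher, 33.3% against 13.2% of all genes. For 10 of the 27 every mutant liver was above every control, an order seen in 18.7% of all genes, and the median was 0.91. The DNA replication genes Rrm2 (log2 fold change 1.11, unadjusted p = 0.00489), Pcna (0.91, 0.0068) and Mcm2 (1.91, 0.0115) and the topoisomerase Top2a (1.31, 0.0190) had adjusted p-values from 0.255 to 0.270 (limma). The count of 9 fell to 4 without mutant b or mutant c and to 3 without both livers c, and rose to 13 without control a. Immediate early genes, which respond within minutes to stress and growth signals, had 12 tested members and 1 call, higher (2 without control b). That was 8.33%, against 13.2% of all genes. The call was Fos, at 0.84, 0.75 and 0.56 FPKM in controls and 1.54, 2.06 and 2.87 FPKM in mutants (log2 fold change 1.44, unadjusted p = 0.00310, adjusted p = 0.255, limma). The median centred level of the immediate early genes was -0.60 in control liver c and 0.63 in mutant liver c, and between -0.19 and 0.050 in the other 4 livers. Other p53 targets (-0.33 and 0.13), BTG and GADD45 relatives (-0.15 and 0.075) and cholangiocyte markers (-1.18 and 0.69) were also lowest in control liver c and highest in mutant liver c.

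**Figure D4:**
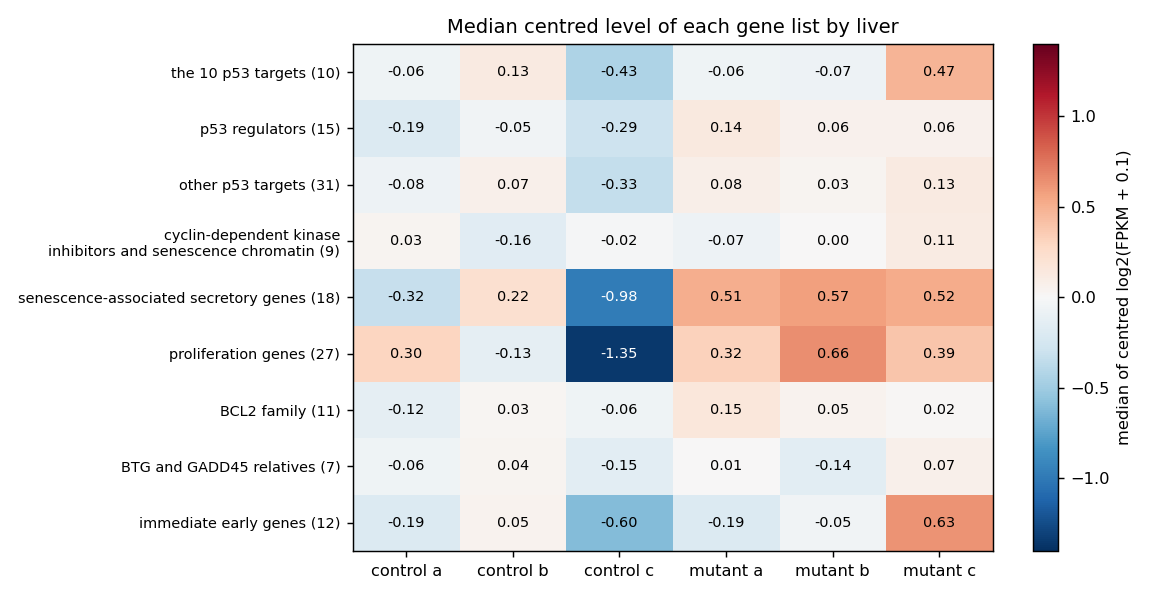
Median log2(FPKM + 0.1), centred on each gene's mean over the 6 livers, for the 10 genes and each other gene list (rows) in each liver (columns). Cell type markers are not shown. The 10 genes and the immediate early genes are highest in mutant liver c, at 0.47 and 0.63, while proliferation genes are highest in mutant liver b.

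Because whole liver was sequenced, fewer cells of a type and less RNA per cell cannot be told apart. Summed markers of macrophages, stellate cells, endothelial cells and cholangiocytes were each lowest in control liver c, and for each of them the sums overlapped between genotypes. Macrophage markers were above 0 in 9 of 9 genes, as were 70.3% of all genes, with sums of 167 to 245 FPKM in controls and 212 to 448 FPKM in mutants. Stellate cell and myofibroblast markers were above 0 in 7 of 7, with sums of 14.1 to 86.2 FPKM in controls and 70.6 to 157 FPKM in mutants. At an unadjusted p under 0.05 (limma), 4 of the 9 and 3 of the 7 were higher. These were 44.4% and 42.9%, against 13.2% of all genes. For 2 of the 9 and 3 of the 7 every mutant liver was above every control, an order seen in 18.7% of all genes. Control liver c had the lowest sum for both macrophage and stellate cell markers, and mutant liver b, not c, the highest. Cholangiocyte markers were above 0 in 5 of 5 and highest in mutant liver c, at 440 FPKM against 79.5 to 255 FPKM in the others, a sum carried mainly by Spp1. Endothelial markers were above 0 in 5 of 5, with sums of 23.7 to 36.5 FPKM in controls and 34.9 to 63.2 FPKM in mutants. Of the 5 cholangiocyte and the 5 endothelial markers, 1 each was higher at that threshold, 20% in both. Every mutant liver was above every control for 0 and 1 of them. Neutrophil markers summed to 90.5 FPKM in control liver c and 14.6 to 45.4 FPKM elsewhere, a sum carried by S100a8 and S100a9, while Retnlg and Ly6g were highest in mutant livers b and a. Hepatocyte markers, with 6 of 7 in the table, summed to 43466 to 67879 FPKM and overlapped between genotypes. At the same threshold 1 of these 6 was lower, 16.7% against 3.02% of all genes, and 0 of 3 tested neutrophil markers passed. T and NK cell markers summed to 0.57 to 2.13 FPKM, with 1 of 5 tested, and B cell markers had 0 of 3 tested. The part of these cell types in the levels of Cdkn1a and the other p53 targets was not tested.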

How the data were processed

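Poly(A) RNA of 6 livers was sequenced with directional libraries and paired reads of 151 nt. Per the labels and the methods, the authors used cutadapt 2.3, FastQC 0.11.8 and MultiQC 1.7, aligned reads to GRCm38 with STAR 2.7.8a and deposited gene FPKM from RSEM 1.3.3, here rounded to 2 decimals, with no further scaling stated. FPKM were compared with limma 3.58.1 (R 4.3.3, eBayes with a trend) on log2(FPKM + 0.1), with 0.1 as in the study, for genes averaging 0.5 FPKM or more, a scale that understates changes of low genes. The fit and the depth estimate were tested on simulated data. Depth was inferred from the steps between FPKM values of transcripts of 600 to 2500 nt, where 87.9% to 89.6% of values were whole fragments within 0.15. Where a depth 2 times lower did nearly as well, the lower one was taken. Sums of FPKM were 807344 to 838937 per library. No counts were used, so single values have no counting interval.

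The 10 genes and the lists were chosen with earlier results of these data known. Genes named were the 10, up to 4 members of each list at an unadjusted p under 0.05 or otherwise the 2 with the smallest p, Trp53, Mdm4, Gdf15, Trp53cor1, Cdkn2a, Gadd45b, Gadd45g and Btg1, Chrna2 and Cre, and the 5 genes nearest to Cdkn1a. The values of 1 gene that the rule names are not reported here. Marker genes and motif matches are descriptions. Alternatives covered pseudocounts, filters, scalings, forms of limma, a block by letter and each liver left out. Leaving out both livers c, and the alternatives for genes outside the 10, were added after the values were seen.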

Additional observations from a re-analysis of the deposited data

How the results depend on the processing

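The number of the 10 genes at an adjusted p under 0.05 (limma) was 0 under every alternative run, and at an unadjusted p under 0.05 it was 0 to 1 with 1 liver left out and 0 otherwise. Of 180 log2 fold changes of the 10 genes under alternatives, 24 changed sign, and Btg2 and Ccng1 kept theirs throughout. Without both livers c, the values were -0.13 for Cdkn1a, -0.072 for Mdm2, -0.29 for Trp53inp1, -0.22 for Phlda3, -0.16 for Eda2r, -0.10 for Bax, -0.15 for Bbc3 and -0.33 for Gadd45a. Median-ratio scaling gave -0.047 for Mdm2, -0.072 for Trp53inp1, -0.13 for Eda2r, -0.076 for Bbc3 and -0.022 for Gadd45a. Quantile normalization gave -0.026 for Trp53inp1, -0.26 for Eda2r and -0.052 for Bbc3. Array weights gave -0.0063 for Eda2r and -0.078 for Gadd45a. With 1 liver left out, values ran from -0.11 to 0.44 for Trp53inp1, -0.28 to 0.31 for Eda2r, -0.047 to 0.25 for Bbc3 and -0.34 to 0.45 for Gadd45a, and from 0.28 to 1.42 for Cdkn1a, 0.021 to 0.25 for Mdm2, 0.12 to 0.34 for Ccng1, 0.0099 to 0.54 for Phlda3, 0.046 to 0.35 for Bax and 0.29 to 0.74 for Btg2.

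Among other named genes 11 values changed sign. Array weights gave 0.093 for Mdm4 and 0.31 for Gadd45g, and leaving out both livers c gave -0.16 for Btg1 and -0.26 for Btg3. With 1 liver left out, values ran from -0.16 to 0.051 for Mdm4, -0.46 to 0.45 for Gadd45b, -1.33 to 0.16 for Gadd45g and -0.045 to 0.52 for Btg3. Values of further genes that moved by over 1.5 times with 1 liver left out ran from 1.19 to 2.41 for Mcm2, 0.87 to 1.79 for Top2a, 0.56 to 1.23 for Bcl2a1b, 0.27 to 0.75 for Gdf15 and 0.028 to 0.50 for Btg1. Counts at an unadjusted p under 0.05 moved for other p53 targets from 3 higher and 1 lower to 1 and 4 after median-ratio scaling, 0 and 3 after quantile normalization and 7 and 3 with array weights. Over all genes the calls in both directions moved as well, from 2263 to 1935 and 1873 after these scalings and 3658 with array weights. They were 1745 without moderation and 1114 without both livers c. The 3 regulator calls became 1 after either scaling and with the letter as a block, where Trp53 (unadjusted p = 0.0530) and Rchy1 (unadjusted p = 0.0830) lost theirs, and 4 without moderation. The 0 lower calls among kinase inhibitors and senescence chromatin became 1 after median-ratio scaling or without both livers c and 2 after quantile normalization or with array weights. The 9 proliferation calls became 3 without moderation or without both livers c, and the 5 secretory calls became 2 without moderation, 3 after quantile normalization and 9 with the letter as a block. The 2 BCL2 family calls became 1 after either scaling or without moderation and 4 with array weights. The causes were not tested. The labels do not say whether letters a to c pair the livers. Correlations of same-letter deviations were -0.019, 0.055 and 0.016, against -0.055 to 0.038 between different letters. With 3 livers per genotype these values cannot settle whether the livers were paired. With the letter as a replicate block 0 of the 10 genes passed either threshold, with 2114 genes of the table at an unadjusted p under 0.05 in place of 2263. FPKM near 0 rest on few fragments, by the estimated depths most of all in the mutant libraries.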
